A study of Mus musculus with 16 samples.

Results

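Chromatin was compared between LC3-GFP positive and LC3-GFP negative CD8+ T cells recovered from mouse melanomas. All peaks listed for the 8 tumour libraries were used, 4 positive and 4 negative, out of 16 libraries in the whole series. They were chosen by the population named in their labels, and the 8 lists together held 304644 peaks. The donor cells were purified T cells of Pmel-LC3-GFP-RFP mice, which carry a T cell receptor against a melanocyte antigen together with a fluorescent reporter fused to the autophagy protein LC3. Before transfer, all donor cells had 3 days of stimulation with αCD3 and αCD28 (2 µg/ml each) with IL2 at 100 IU/ml, then 24 h of carbon monoxide (CO), and were then separated by LC3-GFP. The recipients were C57BL/6 mice with B16-F10 melanomas, which had been placed under the skin 12 days earlier, and each received the same number of LC3-GFP positive or LC3-GFP negative cells. Tumours were taken 15 days later. Vβ13+CD8+ cells of each tumour, 4 mice per group, gave 1 library per mouse by ATAC-seq, an assay of where the transposase Tn5 can reach the DNA. The groups therefore record the LC3-GFP state before transfer, not at recovery. Age and sex of the mice are not given in the labels, both groups carry the CO treatment, and the final sort by receptor chain and CD8 does not by itself part transferred cells from host cells that share them. A further 2 positive and 2 negative ATAC libraries came from sorted cells before transfer and are called in vitro here, and 4 RNA libraries, 2 positive and 2 negative, were made from such cells.

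Autophagy delivers cytoplasm and organelles to lysosomes in vesicles coated with LC3, and GFP attached to LC3 loses its fluorescence in the acid of the lysosome. Inside tumours, CD8+ T cells that keep meeting antigen acquire an exhausted state, which is known for inhibitory receptors, the transcription factor TOX and open chromatin at sites read by NFAT and AP-1 factors downstream of the T cell receptor and calcineurin. Memory-like and naive cells keep open chromatin at genes of self-renewal, such as those for the factors TCF1 and LEF1. An ATAC peak marks a stretch where the transposase cut more often than in its surroundings, usually a promoter or an enhancer.

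The promoter windows of 3 genes are printed because each window lay wholly inside a region with a peak in all 4 negative and in 0 of 4 positive libraries, and because the locus of each also had less peak coverage in positive libraries by the test described further on. Such a region itself adds coverage to its locus in negative libraries only, so the second condition is not independent of the first. They belong to Rcan1, whose product inhibits calcineurin, Ptpn5, which encodes a tyrosine phosphatase known from neurons, and Sulf2, which encodes a secreted sulfatase of heparan sulfate. Each window runs from 250 bases before to 50 bases after a RefSeq start (GRCm38.p6, the assembly that mm10 names), is on the minus strand and is written 5′ to 3′. Capitals mark the AP-1 motif TGANTCA and the NFAT core GGAAA, on either strand. RefSeq lists 2 starts for each of these genes, and the window shown is at the one further inside the gene, 66.1 kb from the outer start at Rcan1, 1.09 kb at Ptpn5 and 0.398 kb at Sulf2.
Rcan1, chr16:92400029-92400328: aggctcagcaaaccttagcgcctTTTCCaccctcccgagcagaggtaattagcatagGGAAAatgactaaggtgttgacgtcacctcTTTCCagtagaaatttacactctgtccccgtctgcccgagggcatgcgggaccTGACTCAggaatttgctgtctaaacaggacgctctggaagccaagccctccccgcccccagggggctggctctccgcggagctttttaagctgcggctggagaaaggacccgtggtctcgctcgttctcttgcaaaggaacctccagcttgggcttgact
Ptpn5, chr7:47132549-47132848: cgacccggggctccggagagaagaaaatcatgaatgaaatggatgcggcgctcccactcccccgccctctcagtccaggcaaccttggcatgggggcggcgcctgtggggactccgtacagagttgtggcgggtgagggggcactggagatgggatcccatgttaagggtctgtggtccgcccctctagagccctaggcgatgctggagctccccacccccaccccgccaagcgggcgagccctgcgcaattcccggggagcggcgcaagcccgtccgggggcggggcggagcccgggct
Sulf2, chr2:166155236-166155535: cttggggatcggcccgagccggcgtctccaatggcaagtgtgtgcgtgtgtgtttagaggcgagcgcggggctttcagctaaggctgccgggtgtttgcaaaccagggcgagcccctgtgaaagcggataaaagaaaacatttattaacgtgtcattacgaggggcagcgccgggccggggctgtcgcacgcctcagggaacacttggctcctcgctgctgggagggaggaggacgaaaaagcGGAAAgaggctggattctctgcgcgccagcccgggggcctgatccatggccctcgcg
The Rcan1 window held 1 AP-1 motif and 3 NFAT cores, the Sulf2 window 1 NFAT core, and the Ptpn5 window neither motif. Among all 32851 promoter windows of that length, 7.81% held TGANTCA and 61.3% held GGAAA on either strand. Of the 9 windows wholly inside positive-only regions, 1 (11.1%) held TGANTCA and 5 (55.6%) held GGAAA, and of the 49 wholly inside negative-only regions, 6 (12.2%) held TGANTCA and 23 (46.9%) held GGAAA. The regions around the 3 printed windows also overlapped a peak in all 4 in vitro libraries, positive and negative.

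The positive libraries held 27406, 37154, 36539 and 37477 peaks, and the negative libraries 41435, 55171, 35758 and 33704. Read depth is unknown from peak lists, and the lowest background pileup in the lists, which moves with depth, was 1.05 to 2.50 in positive and 1.60 to 3.35 in negative libraries. Covered bases, median peak length, the share of peaks within 1 kb of a gene start and the number of peaks did not separate the groups (two-sided exact permutation tests, p = 0.314 to 0.743, where 0.0286 is the smallest that 4 against 4 allows). Peaks covered 38.2 ± 7.27 Mb in positive and 44.0 ± 10.7 Mb in negative libraries (SD, n = 4 each). All 10 CD8 T cell markers, among them Cd8a, Cd3e and Lck, had a peak at their locus in every library, with 30 to 41 peaks in all in positive and 25 to 43 in negative libraries. The 25 were those of negative replicate 2, and the other negative libraries had 31 to 43.

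Negative replicate 2 stood apart from the other 7 libraries. It alone held 22250 regions, 40.7% of its own, against at most 5.98% held alone by any other library, and it alone lacked 2376. Positive replicate 1, which had the fewest peaks, alone lacked 2013, and the other 6 libraries 43 to 232. With 27406 peaks taken from each library, negative replicate 2 shared 43.5% to 46.2% of regions with the others, which shared 68.8% to 85.5% among themselves. Of the 12 macrophage, monocyte and dendritic cell markers, 8 or 9 had a peak at their locus in each positive library, 12 in negative replicate 2 and 8 or 9 in the other negative libraries. Csf1r, the receptor of the macrophage growth factor, had 3 peaks in negative replicate 2, 1 in positive replicate 4 and 0 in the others. Peaks at Lyz2 and Adgre1, which encode a lysozyme and the surface protein F4/80 of macrophages, were listed in negative replicate 2 only. Of the melanoma markers, 5 peaks were listed in each positive library, 5 in negative replicates 1, 3 and 4, and 19 in negative replicate 2, where 13 of them lay at Mitf, a factor of melanocytes that macrophages also use. The melanoma markers Tyr and Pmel themselves had 0 and 3 peaks in every library. Dct, another marker of that list, had 2 peaks in negative replicate 2 and 0 in the other 7. Fibroblast and endothelial markers had 17 peaks in negative replicate 2, 6 to 8 in positive and 6 to 11 in the other negative libraries. The scavenger receptor gene Cd36 was covered over 9.94 kb in negative replicate 2 and 0 kb in the other 7, and it was picked after its values were seen. What set this library apart was not tested, so the main counts and tests below are given with and without it.

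**Figure D1:**
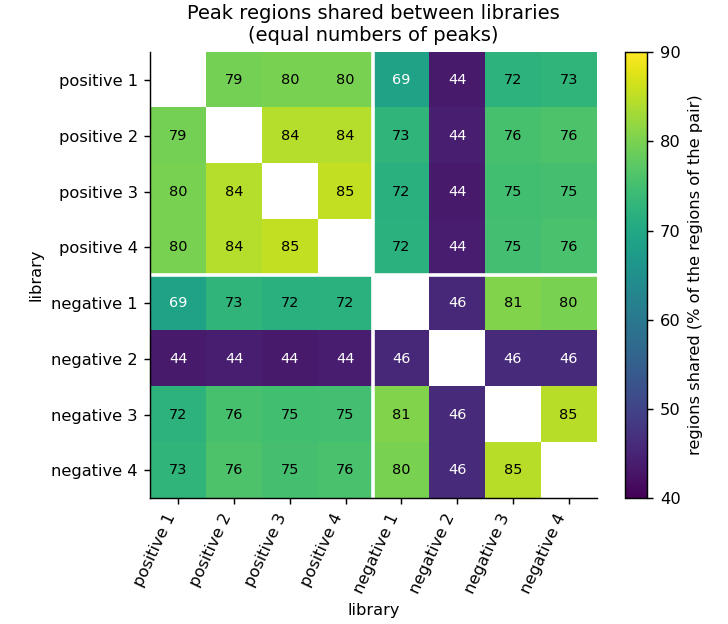
Share of peak regions that each pair of libraries had in common, in percent of the regions of the pair, with equal numbers of peaks from each library; rows and columns are the 4 positive and then the 4 negative libraries. Without negative replicate 2, pairs within a group shared 79.5% to 85.5% and pairs across groups 68.8% to 76.0%.

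Outside negative replicate 2, libraries of a group shared more regions than libraries across groups when equal numbers of peaks were compared. With equal numbers of peaks, positive pairs shared 79.5% to 85.5% of regions (median 82.2%, 6 pairs) and negative pairs 80.0% to 84.5% (median 80.5%, 3 pairs). Pairs of a positive and a negative library shared 68.8% to 76.0% (median 73.8%, 12 pairs), below every pair within a group. With all peaks, positive pairs shared 69.6% to 82.9%, negative pairs 74.2% to 81.0% and pairs across groups 60.8% to 72.9%, so the ranges overlapped, with the pairs of positive replicate 1 lowest within its group at 69.6% to 70.9%. Libraries recur across pairs, so these ranges are a description.

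The peaks of the 8 libraries merged into 72327 regions, where peaks that overlapped by at least 1 bp were joined, and 20969 regions held a peak in all 8. A region was called positive-only with a peak in all 4 positive and 0 negative libraries, and negative-only in the reverse case. There were 500 positive-only regions (0.691% of regions) and 750 negative-only regions (1.04%). Without negative replicate 2, 610 of 50077 regions were positive-only (1.22%) and 1318 negative-only (2.63%). Leaving out positive replicate 1 in its place gave 1208 positive-only and 763 negative-only regions, the opposite order. With equal numbers of peaks and without negative replicate 2, the numbers were 848 (2.33%) and 957 (2.63%). With 8 libraries of equal length there were 770 positive-only and 308 negative-only regions. Which class was larger therefore changed with the libraries and the list lengths, and no order is drawn from it. No single region could pass a test over all regions, since the smallest p of Fisher's exact test at 4 against 4 is 0.0286 and 0 of 72327 had an adjusted p under 0.05, with 1250 at an unadjusted p under 0.05. In bulk libraries, fewer cells with an open site and less signal per cell cannot be told apart.

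**Figure D2:**
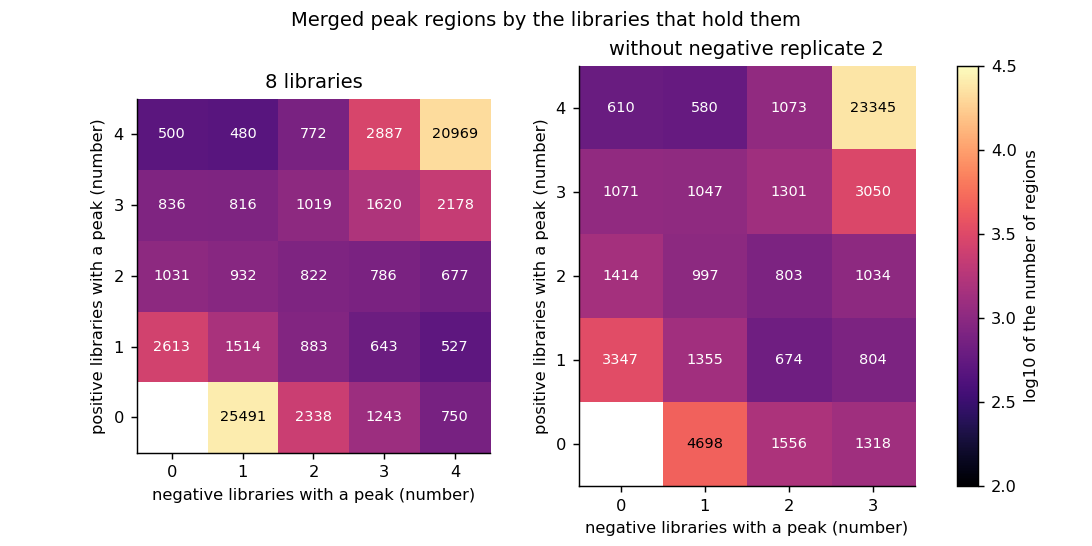
Number of merged regions by how many positive (vertical axis) and how many negative libraries (horizontal axis) held a peak there, with 8 libraries on the left and without negative replicate 2 on the right; colour is log10 of the number. Regions in all 8 libraries number 20969, and the 25491 regions in 1 negative library and 0 positive libraries at the lower edge include the 22250 of negative replicate 2.

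Regions of either class lay mostly away from gene starts. Of positive-only regions, 1.60% lay within 1 kb of a gene start and 57.2% elsewhere in a gene body, and of negative-only regions 6.53% and 48.5%. Among all regions, 17.4% lay at a gene start, and among those in all 8 libraries 49.1%. The median distance to a start was 37.4 kb for positive-only and 28.2 kb for negative-only regions, against 19.8 kb for all. Both classes were of middling strength in their own lists, with a median rank percentile of 31.7 for positive-only and 31.0 for negative-only regions, against 35.8 for all regions and 70.1 for those in all 8. Whole promoter windows inside a region of one class belonged to 3 protein-coding genes for positive-only regions and 35 for negative-only regions. Besides Rcan1, Ptpn5 and Sulf2, the negative-only set included Spp1, which encodes osteopontin, the neutrophil chemokine gene Cxcl2 and the cytokine subunit gene Ebi3, which were picked after their values were seen.

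Among the positive-only regions that ranked highest, one lay in the gene body of Tox at chr4:6969766-6971099 (mm10), 21.1 kb from its start. It ranked between percentiles 51.8 and 64.2 of the 4 positive lists, with a fold enrichment over local background of 6.80 to 7.66 by the authors' values, and was present in all 4 in vitro libraries. The other 7 lay in the bodies of Lbp (chr2:158322592-158323787), Kif1b and Mia2 or between genes, nearest to the starts of Map10, Adamts20, Rflnb and Tbcel. Lef1 held a positive-only region at chr3:131190493-131191664, and Foxp1, a factor of naive T cells, one at chr6:99322036-99322992. Of the 22 memory and stemness genes listed below, these 2 held a positive-only region (9.09%, against 1.85% of genes with a region). Another 2, Bach2 and Cxcr5, held a negative-only one (9.09%, against 2.53%). Without negative replicate 2, the numbers were 2 positive-only (9.09%, against 2.28%) and 4 negative-only (18.2%, against 4.13%). Of the negative-only regions that ranked highest, 3 lay in the bodies of Bcr, Ccdc148 and Fnbp1, and 5 between genes, nearest to Spsb1, Xpo7, Rasgrf1, Gpr157 and Mdfic. Hivep3 held 5 negative-only regions and Gldc 3, between positions 30113125 and 30125878 of chromosome 19.

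Presence in the cells before transfer differed between both classes. Of positive-only regions, 43.2% and 33.8% overlapped a peak of in vitro positive replicates 1 and 2, and 56.4% and 47.2% one of in vitro negative replicates 1 and 2. Of negative-only regions, 88.0% and 81.2% overlapped a peak of in vitro positive replicates 1 and 2, and 85.7% and 79.3% one of in vitro negative replicates 1 and 2. The shares for all tumour regions were 63.7%, 57.5%, 60.0% and 55.0% in the same order. All 4 in vitro libraries held 28.4% of positive-only and 72.4% of negative-only regions, and 0 of 4 held 35.6% and 7.87%. Negative-only regions of the tumour were thus mostly listed in cells of both populations before transfer, and positive-only regions were listed more often in the in vitro negative than in the in vitro positive libraries. Without negative replicate 2, the shares of positive-only regions were 51.0% and 40.5% in in vitro positive and 61.0% and 52.1% in in vitro negative libraries. Those of negative-only regions were then 76.9% and 68.9%, and 78.1% and 70.9%, against 78.5%, 72.6%, 78.1% and 72.7% for all 50077 regions. The excess of negative-only regions over all regions was therefore not present without negative replicate 2. Of the 22250 regions that this library alone held, 65.3% were in 0 of 4 in vitro libraries. The lower share of positive-only regions was present in both cases. Tumour and in vitro libraries share no sample, and these shares carry no test.

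**Figure D3:**
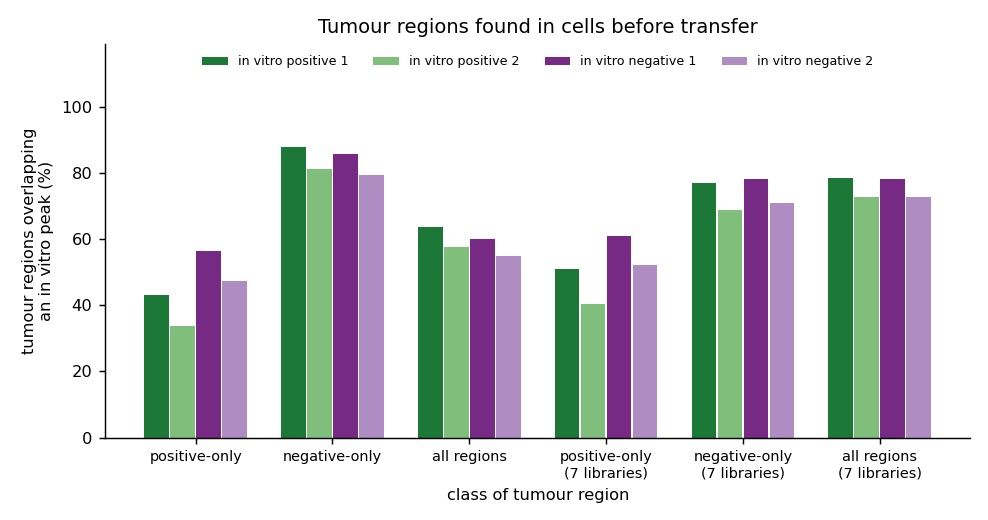
Percent of tumour regions of each class that overlapped a peak in the 4 libraries of sorted cells before transfer (2 in vitro positive, 2 in vitro negative), with 8 tumour libraries and without negative replicate 2 (7 libraries). Positive-only regions overlapped least often in every in vitro library, at 33.8% to 56.4% with 8 libraries and 40.5% to 61.0% with 7.

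To compare genes, the bases of each gene body with 2 kb on either side that were covered by peaks were summed in each library and scaled to the mean covered length of 41.1 Mb, and limma was run on log2(bp + 100) of 14165 loci. Peak coverage is how much of a locus was called open, not how strongly. By limma with Benjamini-Hochberg adjustment, 24 loci had more coverage in positive libraries (0.169% of loci) and 18 less (0.127%), at an adjusted p under 0.05. Unadjusted p-values were under 0.05 for 1585 loci, and the groups did not overlap at 1185 (8.37%). Without negative replicate 2, 212 of 14227 loci had more (1.49%) and 129 less coverage (0.907%), and these included all 24 and all 18. The groups then did not overlap at 1879 loci (13.2%). With no scaling the numbers were 1 and 2 with 8 libraries and 3 and 5 without negative replicate 2, and the median log2 difference of all loci was -0.07 with no scaling and 0.11 with it. With equal numbers of peaks 50 loci had more and 36 less coverage, and 5 and 4 of them were among the 24 and 18, so most calls were not shared between both settings. Single libraries decided many calls, as leaving out positive replicate 2 left 0 higher and 6 lower, positive replicate 3 left 2 and 8, positive replicate 4 left 0 and 6, and negative replicate 4 left 1 and 2.

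Loci with less coverage in positive cells included Hivep3, Rcan1, Ptpn5, Sulf2 and Dusp16. Hivep3, which encodes a large zinc finger protein (chromosome 4, 119733759 to 120138045), had 5.98, 7.14, 4.99 and 5.13 kb of peaks in positive and 15.9, 18.9, 15.4 and 13.8 kb in negative libraries. Every positive library lay below every negative one, and the difference of -1.45 on the log2(bp + 100) scale (SE 0.157) had an adjusted p of 0.00827 by limma. The call was also made with equal numbers of peaks (log2 -1.42, adjusted p by limma = 0.0187), while with no scaling the adjusted p was 0.0836. Rcan1 (chromosome 16, 92391951 to 92466169) had 1.35, 1.42, 1.09 and 1.64 kb in positive and 2.82, 6.36, 3.35 and 3.37 kb in negative libraries (log2 -1.40, SE 0.233, adjusted p by limma = 0.0361). Its groups did not overlap, and negative replicate 2 lay far above the rest of its group. Without that library the log2 difference was -1.16 (adjusted p by limma = 0.00389), and with equal numbers of peaks the locus was not called (adjusted p = 0.429). Ptpn5 had 1.34, 1.60, 1.94 and 1.76 kb in positive and 3.86, 4.35, 4.66 and 4.47 kb in negative libraries (log2 -1.34, SE 0.156, adjusted p by limma = 0.00881), with each group tight around its mean, and with equal numbers of peaks it was also called (adjusted p = 0.0240). Sulf2 had 1.61, 0.742, 1.49 and 0.801 kb in positive and 5.73, 5.52, 3.44 and 3.40 kb in negative libraries (log2 -1.91, adjusted p by limma = 0.0294, and 0.0536 with equal numbers of peaks). Dusp16, which encodes a phosphatase of the kinases JNK and p38, averaged 2.43 ± 0.136 kb in positive and 5.31 ± 1.25 kb in negative libraries (SD, n = 4 each) and fell by 1.07 on the log2 scale. Dusp16 was not called with equal numbers of peaks (adjusted p by limma = 0.183), and its log2 difference was 0.06 in a window of 10 kb around the gene start.

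Peaks were absent from a few loci in one group. At Gldc, whose product breaks down glycine in mitochondria (chromosome 19, 30098441 to 30175441), 0 kb was listed in all 4 positive libraries and 2.26, 2.51, 2.35 and 2.16 kb in the negative libraries (adjusted p by limma = 0.00881). The locus was called under every scaling, at adjusted p-values of 0.00912 with equal numbers of peaks and 0.0161 with no scaling. Exoc3l4 was likewise listed at 0 kb in all positive libraries and at 1.96, 2.64, 2.07 and 1.38 kb in the negative ones. In the other direction, Arpp21, which encodes a phosphoprotein of neurons and immature thymocytes (chromosome 9, 112065091 to 112236288), had 1.65, 3.21, 1.74 and 2.92 kb in positive libraries and was listed at 0 kb in all 4 negative ones (adjusted p by limma = 0.0115). Morc1, a gene of male germ cells, had 1.08 to 2.03 kb in positive libraries and 0 kb in all negative ones. With equal numbers of peaks neither was called (adjusted p by limma = 0.0758 for Arpp21 and 0.0692 for Morc1), and with no scaling the values were 0.0390 and 0.0594. In the cells before transfer, Arpp21 held 6.09 and 5.97 kb in in vitro positive and 6.05 and 6.47 kb in in vitro negative libraries. A locus listed at 0 kb is one where no peak passed the authors' threshold, so no fold is given for these 4 genes. All 4 passed the filter of 200 bp in 4 libraries only through the group with peaks. The other group had no spread, so their p-values add no support beyond the listed lengths. With 1 library left out, the highest adjusted p by limma was 0.0616 at Gldc, 0.0795 at Exoc3l4, 0.0606 at Arpp21 and 0.124 at Morc1.

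The 15 largest falls without overlap also included Cnih3, Trim66, Ankrd33b, 2900026A02Rik, Piwil2, Pbx4 and Bcar1, with log2 differences of -3.96 for Cnih3 to -0.96 for Bcar1, which encodes an adaptor of integrin signalling. Cnih3 was listed at 0 kb in 3 of 4 positive libraries. Trim66 averaged 0.292 ± 0.0524 kb in positive and 1.64 ± 0.475 kb in negative libraries (SD, n = 4 each).

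Loci with more coverage in positive cells included Ezh1, Brdt, Trpm1, Uso1 and Xpa. Ezh1, which encodes a histone H3 lysine 27 methyltransferase of the Polycomb complex PRC2 (chromosome 11, 101191115 to 101226463), had 4.14, 4.04, 3.45 and 3.48 kb in positive and 1.90, 1.75, 2.12 and 2.50 kb in negative libraries. The groups did not overlap, and the difference of 0.85 (SE 0.158) passed limma's test at an adjusted p of 0.0493, and at 0.0131 without negative replicate 2. With equal numbers of peaks it missed the threshold (adjusted p = 0.0758), as did Brdt (adjusted p = 0.378). Brdt, a bromodomain gene of the testis, had 3.12, 3.61, 3.18 and 3.47 kb in positive and 1.39, 1.58, 0.910 and 0.898 kb in negative libraries (log2 1.45, adjusted p by limma = 0.0138). Uso1, which encodes a tether of Golgi vesicles, averaged 4.61 ± 0.659 kb in positive and 2.30 ± 0.455 kb in negative libraries (SD, n = 4 each), and Xpa, a DNA repair gene, 2.29 ± 0.252 and 1.14 ± 0.187 kb. Uso1 pointed the other way, at a log2 of -0.18, when a 10 kb window around the gene start replaced the gene body. Actr10, a subunit gene of dynactin, and Ppp4r1, a regulatory subunit gene of protein phosphatase 4, rose by 1.18 and 0.98. Trpm1, a cation channel gene of melanocytes and retina, had 4.97, 5.98, 6.90 and 6.73 kb in positive and 2.17, 3.43, 3.39 and 1.81 kb in negative libraries (log2 1.20, adjusted p by limma = 0.0456). Trpm1 was not called with equal numbers of peaks (adjusted p by limma = 0.0695), with no scaling (0.595) or in the 10 kb window (0.186). It was called with equal numbers of peaks and without negative replicate 2 (0.0106). Peaks of the melanoma marker list, which does not hold Trpm1, numbered the same in all libraries but negative replicate 2, as given above. The part of melanoma cells in the difference at Trpm1 was not tested. Tnni1, Gabrr2, Ntn5, Immp2l, Rnf32, Ppef2 and Armh3 made up the rest of the 15 largest rises, with log2 differences of 0.99 to 1.39.

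**Figure D4:**
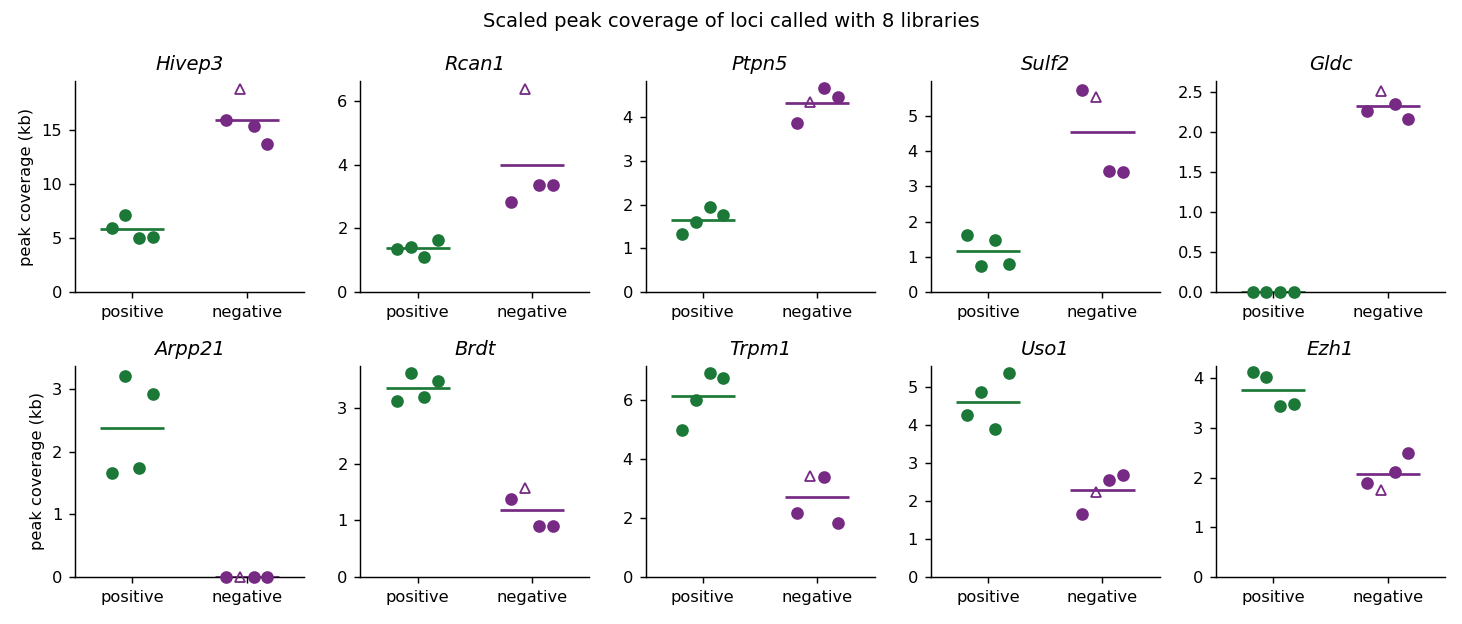
Scaled peak coverage in kb at 10 loci called with 8 libraries, 1 point per library, positive left of negative; bars are means of 4 libraries and the open triangle is negative replicate 2. Groups do not overlap at any of the 10, but all except Ezh1 were named by a rule that required this, so it is no added result. Over all loci tested, groups do not overlap at 8.37%. Gldc is at 0 kb in all positive and Arpp21 at 0 kb in all negative libraries.

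Lef1, which encodes a transcription factor of naive and memory T cells, did not overlap between groups with 8 libraries and passed the test when negative replicate 2 was left out. Lef1 (chromosome 3, 131110297 to 131224357) had 15.9, 14.6, 14.9 and 14.6 kb in positive and 8.80, 4.92, 11.0 and 10.5 kb in negative libraries, with no overlap. Its adjusted p by limma was 0.135 with 8 libraries, 0.0108 without negative replicate 2 (log2 0.58), and 0.0920 with equal numbers of peaks as well. Tcf7, which encodes TCF1, showed no such order, with 8.49, 7.71, 7.78 and 8.32 kb in positive and 10.5, 3.69, 7.56 and 10.3 kb in negative libraries (log2 0.12, adjusted p by limma = 0.862). Without negative replicate 2, the log2 difference of Tcf7 was -0.21 (adjusted p by limma = 0.533). Of the 22 memory and stemness genes, 0 were called with 8 libraries. Leaving that library out, 2 were higher (9.09%, against 1.49% of all loci), Lef1 among them, and 0 lower (against 0.907%), and the median log2 difference was 0.04, against 0.03 for all loci. Foxp1, Bach2, Cxcr5 and Il7r of this list were not called in either fit. Their log2 differences were 0.40, 0.15, 0.35 and -0.09 with 8 libraries, and 0.27, 0.08, 0.02 and -0.26 without negative replicate 2.

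Among 22 inhibitory receptor and exhaustion genes, 0 were called with 8 libraries, and without negative replicate 2 there was 1 higher (4.55%, against 1.49% of all loci) and 0 lower (against 0.907%), with a median of -0.07. The locus called was Ikzf2, which encodes Helios, with 4.65, 5.15, 4.05 and 3.34 kb in positive and 2.08, 2.38, 2.53 and 2.38 kb in negative libraries. The groups did not overlap, and the adjusted p by limma was 0.0597 with 8 libraries and 0.0160 without negative replicate 2 (log2 0.84). Tox (chromosome 4, 6686353 to 6991557) had 10.3, 9.12, 9.84 and 9.15 kb in positive and 8.38, 4.56, 6.23 and 5.34 kb in negative libraries. Every positive library was above every negative one, and the difference of 0.68 was not called (adjusted p by limma = 0.134, and 0.0578 without negative replicate 2). With 8 libraries it was also not called with equal numbers of peaks (adjusted p = 0.454), with no scaling (0.552) or in a window of 10 kb around the gene start (0.732). It passed with equal numbers of peaks and without negative replicate 2, a setting added after the data were seen, at 0.69 with an adjusted p of 0.0120. Tox2 held 1 negative-only region and had a log2 difference of -0.06. Pdcd1, which encodes PD-1, had 0, 0.637, 1.77 and 1.03 kb in positive and 3.21, 0.700, 1.65 and 2.11 kb in negative libraries, with overlap, and no call (log2 -1.51, SE 0.957, adjusted p by limma = 0.625). Its log2 difference was 1.96 with equal numbers of peaks, so no direction is given. Havcr2, which encodes TIM-3, had 1.88, 4.19, 4.00 and 4.06 kb in positive and 4.29, 3.71, 5.27 and 5.40 kb in negative libraries, and Lag3 averaged 2.32 ± 0.436 kb in positive and 2.63 ± 0.856 kb in negative libraries (SD, n = 4 each). Neither was called (log2 -0.44 and -0.13). Without negative replicate 2, their differences were -0.55 and -0.36, also with no call (adjusted p by limma = 0.438 and 0.418). The groups then did not overlap at Havcr2, as at 13.2% of all loci.

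**Figure D5:**
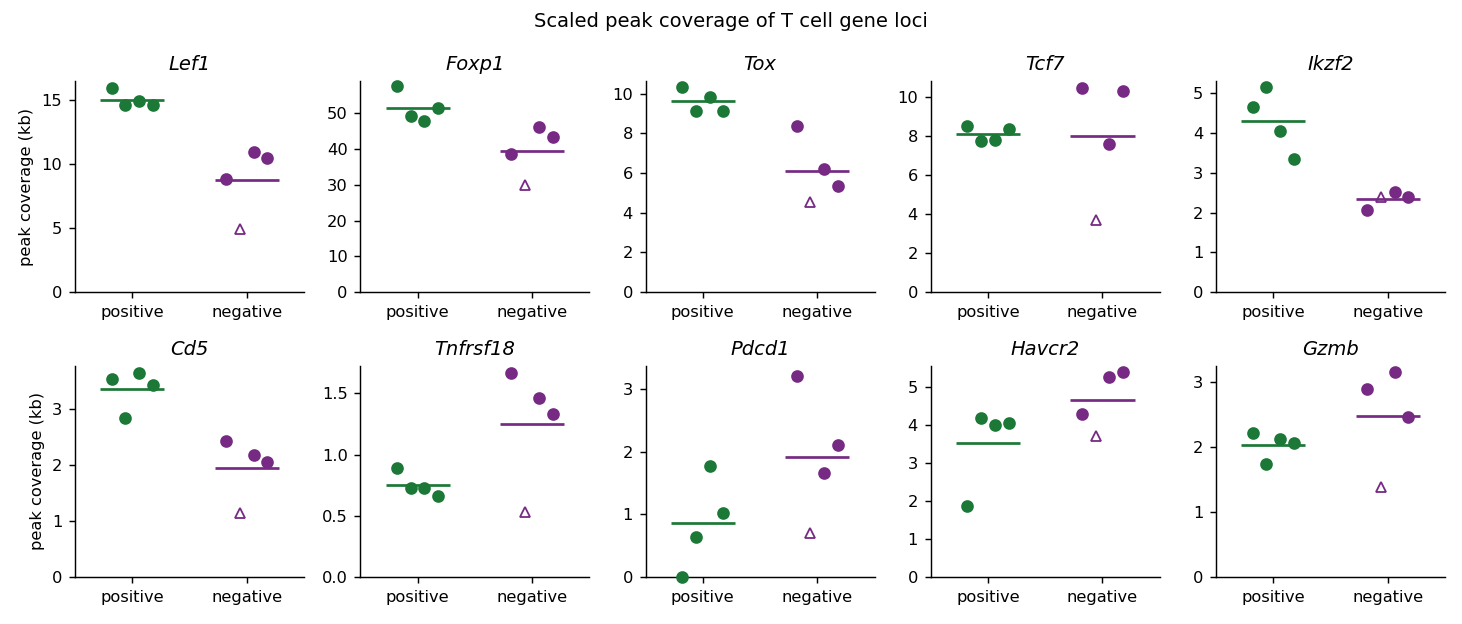
Scaled peak coverage in kb at 10 T cell loci, 1 point per library, positive left of negative; bars are means of 4 libraries and the open triangle is negative replicate 2. With 8 libraries, Lef1, Foxp1, Tox, Ikzf2 and Cd5 do not overlap between groups, and Tcf7, Tnfrsf18, Pdcd1, Havcr2 and Gzmb do. Without negative replicate 2, Tnfrsf18, Havcr2 and Gzmb do not overlap either, with the positive libraries lower. Over all loci tested, groups do not overlap at 8.37% with 8 libraries and 13.2% without negative replicate 2.

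T cell receptor genes and costimulators gave 1 call each way without negative replicate 2 and 0 with it. Cd5, a surface protein that dampens receptor signals and is set by their strength during thymic selection, had 3.53, 2.85, 3.65 and 3.42 kb in positive and 2.43, 1.15, 2.18 and 2.06 kb in negative libraries (log2 0.80, adjusted p by limma = 0.138, and 0.0409 without negative replicate 2). It was 1 of 20 T cell identity and receptor genes called higher without that library (against 1.49% of all loci), with 0 lower. This list's median log2 difference was 0.44 with 8 libraries and 0.11 without negative replicate 2. Cd8a averaged 2.23 ± 0.343 kb in positive and 2.04 ± 0.509 kb in negative libraries and Cd3e 4.63 ± 0.376 and 3.54 ± 1.28 kb (SD, n = 4 each), and neither was called. Ptprc, which encodes CD45, held 1 negative-only region, with a log2 difference of 0.09. Of 16 costimulatory genes of the TNF receptor family, 0 were called with 8 libraries, and without negative replicate 2 there were 0 higher and 1 lower (6.25%, against 0.907% of all loci). That was Tnfrsf18, which encodes GITR, with 0.889, 0.725, 0.728 and 0.665 kb in positive and 1.67, 0.529, 1.46 and 1.33 kb in negative libraries. Negative replicate 2 lay below all positive libraries there, and without it the difference was -0.90 (adjusted p by limma = 0.0137). With equal numbers of peaks as well, Tnfrsf18 was not called (adjusted p by limma = 0.248). With 8 libraries and a window of 10 kb around the gene start, its log2 difference was 0.11. Every library listed 2 peaks at this locus, so only their covered length differed. Cd226 held 1 negative-only region. By a choice made after the values were seen, Dapl1 and Nsg2, which are known from naive mouse T cells, also had more coverage without negative replicate 2 (log2 0.87 and 1.04). Tnfsf9, which encodes the ligand of the costimulator 4-1BB, had less (log2 -0.93, adjusted p by limma = 0.00693), at 0.977, 0.846, 0.782 and 0.968 kb in positive and 1.98, 1.23, 1.82 and 1.58 kb in negative libraries.

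Effector genes were not called in either direction. Of 22 members, 0 passed limma's test with 8 libraries or without negative replicate 2, with medians of 0.08 and -0.15. Over all loci, 0.169% were called higher and 0.127% lower with 8 libraries, and 1.49% and 0.907% without negative replicate 2. At these shares, 0 calls among so few loci are not a result about them. Gzmb, which encodes granzyme B, had 2.21, 1.74, 2.12 and 2.06 kb in positive and 2.88, 1.38, 3.16 and 2.46 kb in negative libraries (log2 -0.21, adjusted p = 0.724). Without negative replicate 2, its groups did not overlap, as at 13.2% of all loci. The log2 difference was then -0.46, with no call (adjusted p by limma = 0.126). Prf1, the perforin gene, had a log2 difference of 0.40 and the interferon gamma gene Ifng one of -0.12. Ifng ran from 0.955 to 3.14 kb in positive and from 1.46 to 2.88 kb in negative libraries. Tbx21, which encodes T-bet, held 1 negative-only region and a log2 difference of 0.06. Cytokine receptor and signalling genes held negative-only regions most often of all lists. Of 24 members, 5 held 1 (20.8%, against 2.53% of the 15933 genes with a region), namely Il6ra, Il18rap, Stat3, Stat4 and Stat5b, and 1, Jak1, held a positive-only region (4.17%, against 1.85%). None of the 24 loci was called by limma with or without negative replicate 2, and Stat4 had a log2 difference of -0.39 without it (adjusted p = 0.0810). With 7 libraries, 5 of 24 held a negative-only (20.8%, against 4.13% of genes) and 2 a positive-only region (8.33%, against 2.28%). These shares were not adjusted for the size of the loci. Tissue residency genes gave 0 calls among 18 in both fits, with Itga4 and Cd44 holding 1 positive-only and 1 negative-only region. AP-1, BATF, IRF and NF-kB factors gave 0 calls among 20 in both. As for the effector list, these counts are near the shares over all loci.

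Autophagy genes, by whose marker the cells had been sorted, showed 1 call in 31 core members and only without negative replicate 2 (3.23%, against 1.49% of all loci higher in that fit). Uvrag, a subunit gene of a class III PI3 kinase complex, had 14.4, 11.6, 14.9 and 15.0 kb in positive and 8.64, 13.8, 10.3 and 9.89 kb in negative libraries. Negative replicate 2 overlapped the positive libraries, and without it the difference was 0.53 (adjusted p by limma = 0.0256), though it was not called with equal numbers of peaks as well (adjusted p = 0.382). Uvrag and Pik3r4, another subunit gene of such complexes, held 1 positive-only region each, that of Uvrag at chr7:99017249-99018549, and Atg10, an enzyme gene of ATG12 conjugation, held 2 negative-only regions. The LC3 genes themselves were not called (adjusted p by limma = 0.828 and 0.622), with Map1lc3b at 2.37 ± 0.769 kb in positive and 2.11 ± 0.495 kb in negative libraries and Map1lc3a at 1.68 ± 0.314 and 1.37 ± 0.275 kb (SD, n = 4 each). Of 21 selective autophagy and lysosome loci 0 were called in both fits, which is near the shares over all loci (0.169% higher and 0.127% lower with 8 libraries). The receptor gene Sqstm1 had a log2 difference of -0.37.

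Loci of the PERK and integrated stress response gave 0 calls among 26 tested members with 8 libraries and 0 without negative replicate 2. Over all loci, 0.169% were called higher and 0.127% lower with 8 libraries, and 1.49% and 0.907% without negative replicate 2. Of 28 members, 0 held a region of either class, against 1.85% (positive-only) and 2.53% (negative-only) of all genes with a region. Eif2ak3, which encodes PERK, averaged 4.04 ± 0.592 kb in positive and 3.84 ± 0.412 kb in negative libraries, and Atf4, its main downstream factor, 1.93 ± 0.426 and 1.65 ± 0.288 kb (SD, n = 4 each). Ddit3, which encodes CHOP, had a log2 difference of 0.28 (adjusted p by limma = 0.628). Heme, carbon monoxide and NRF2 response loci gave 0 calls among 17, with Hmox1, which encodes heme oxygenase 1, at 1.04 ± 0.213 kb in positive and 1.13 ± 0.222 kb in negative libraries. Mitochondrial (25 loci), glycolytic and HIF1 target (25), interferon response (20) and proliferation genes (24) each gave 0 calls in both fits. In the mitochondrial list Gabpa held 1 positive-only and Sirt3 1 negative-only region, and Ppargc1a, which encodes the coactivator PGC-1 alpha, had a log2 difference of 0.09. In the proliferation list, the cyclin gene Ccnd3 held 1 negative-only region. A p that misses the threshold does not show that these loci are alike in both groups. At the shares over all loci, 0 calls in a list of this size are not a result about its members.

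Chromatin enzymes gave the most calls of any list. Of 26 members, Ezh1 was called with 8 libraries (3.85%, against 0.169% of all loci). With 7 libraries 3 were higher, Ezh1, Tet1 and Kdm6a (11.5%, against 1.49% of all loci), and 0 lower (against 0.907%). Tet1, an oxidase gene of DNA demethylation, had 3.93, 3.48, 3.80 and 4.19 kb in positive and 2.73, 2.08, 2.75 and 2.41 kb in negative libraries and held 1 positive-only region. Kdm6a, which encodes the H3K27 demethylase UTX, had 6.50, 6.17, 6.74 and 7.53 kb in positive and 4.65, 3.14, 4.78 and 4.88 kb in negative libraries. Neither pair of groups overlapped, and without negative replicate 2 their differences were 0.53 and 0.49 (adjusted p by limma = 0.0396 and 0.0339), and they were not called with equal numbers of peaks as well (adjusted p = 0.354 and 0.511). The other H3K27 genes were not called, with Ezh2 at 3.74 ± 0.878 kb in positive and 4.07 ± 0.422 kb in negative libraries (SD, n = 4 each) and Kdm6b at a log2 difference of 0.13. Arid1a, a subunit gene of the remodeller BAF, held 1 negative-only region (log2 -0.01). Of other marker lists, 0 loci were called with 8 libraries. With 7 libraries, 1 macrophage and dendritic cell marker was, Flt3, at 3.26, 2.39, 4.19 and 3.22 kb in positive and 1.69, 4.51, 1.61 and 1.38 kb in negative libraries (log2 1.00). In positive libraries 5 to 8 of 9 B cell markers, 3 to 6 of 8 NK and innate lymphoid markers and 5 to 7 of 7 CD4 and regulatory T cell markers had a peak at their locus, and in negative libraries 5 to 7, 5 or 6 and 5 to 7. For fibroblast and endothelial markers the numbers were 3 or 4 of 8 in positive and 3 to 6 in negative libraries. At the 6 NK and innate lymphoid loci tested, the median log2 difference was -0.84 with 8 libraries and -0.78 without negative replicate 2, against 0.11 and 0.03 for all loci, and the 8 markers summed to 3 to 10 peaks in positive and 8 to 12 in negative libraries. Of these markers, Ncr1 and Klra8 had 0 peaks in every library. The part of other cells in these results was not tested.

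In the cells before transfer, several of these loci were ordered the other way. At Tox the in vitro positive libraries had 11.7 and 10.7 kb and the in vitro negative ones 20.4 and 17.9 kb. At Lef1 the values were 12.3 and 11.1 kb in in vitro positive and 17.7 and 14.6 kb in in vitro negative libraries, and at Ikzf2 2.88 and 3.32 against 5.31 and 4.78 kb. Both in vitro positive libraries thus lay below both in vitro negative ones at these 3 loci, where the tumour libraries had the positive group above. Of the 24 loci with more coverage in tumour positive cells, 13 had both in vitro positive libraries below both negative ones (54.2%) and 3 above (12.5%). Over all 14165 loci the shares were 27.0% and 17.8%. For the 18 loci with less coverage, 5 were below and 4 above. With 7 libraries, the 212 higher loci included 99 with the in vitro positive libraries below (46.7%) and 36 above (17.0%). The in vitro lists were scaled among themselves, at 64.5 and 52.0 Mb covered in positive and 56.4 and 47.5 Mb in negative libraries, and the difference between both experiments was not tested.

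RNA of the cells before transfer went both ways at the loci called in tumour chromatin. By edgeR's quasi-likelihood test, 1362 of 12022 genes were higher (11.3%) and 1638 lower (13.6%) in positive cells. Of the 24 loci with more coverage in tumour positive cells, 14 were tested in RNA, with 1 higher and 2 lower, and of the 18 with less coverage 14 were, with 3 higher and 4 lower. With 7 libraries, 160 of the loci with more coverage were tested in RNA, with 19 higher (11.9%) and 18 lower (11.3%). Of those with less coverage 91 were tested, with 10 higher (11.0%) and 24 lower (26.4%), against 11.8% and 13.5% of all loci. Among loci with less coverage, Ankrd33b, Sulf2 and Hivep3 had more RNA in positive cells (log2 1.43, 0.92 and 0.51), Bcar1, 2900026A02Rik, Piwil2 and Pbx4 had less (log2 -1.20, -1.14, -0.91 and -0.89), and Rcan1 and Ptpn5 were not called. Ezh1 and Actr10, with more coverage, had less RNA (log2 -0.39 and -0.34). Of the 226 RNA-tested genes with a positive-only region, 32 were lower (14.2%) and 25 higher (11.1%) in positive cells. Of the 291 with a negative-only region, 61 were lower (21.0%) and 33 higher (11.3%), against 13.4% and 11.8% of all genes with a region. RNA and tumour chromatin come from different cells and times, so these are values side by side.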

How the data were processed

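ATAC-seq peak lists of 8 tumour libraries (4 LC3-GFP positive and 4 negative mice) and of 4 in vitro libraries, and RNA counts of 4 libraries, were used. Per the submitters' processing notes, Partek, cutadapt, BWA and MACS2 were used for ATAC and Partek, STAR and DESeq2 for RNA, on mm10; versions, read shifting and strandedness are not given in the sources used here. Per the file headers, the deposited peaks carry their length in bp, pileup signal, fold enrichment (a ratio to the local background) and −log10 p and q, called in each library separately, with a smallest −log10 q of 1.30. The deposited RNA values are estimated counts, which were rounded. Coordinates are as the authors' files give them.

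Peaks overlapping by at least 1 bp were merged. Locus coverage was the length covered within 21887 RefSeq protein-coding genes (GRCm38.p6) with 2 kb on either side, scaled to equal covered length, kept at 200 bp or more in 4 libraries, and tested on log2(bp + 100) with limma 3.58.1 (trend and robust, R 4.3.3). Its fold changes understate low loci. A start was known for 19854 genes. On simulated data over 13922 loci, 79.0% of log2 changes of 1 and 94.0% of changes of 2 were recovered. The simulated noise took the spread of the positive libraries, and the levels left out negative replicate 2. Changes were put only on loci of higher coverage. These shares therefore do not say how many changes the fit with 8 libraries would find, nor how many at low loci. RNA used edgeR 4.0.16 (filterByExpr, TMM, quasi-likelihood), with DESeq2 1.42.0 as an alternative. Adjusted p-values are Benjamini-Hochberg, threshold 0.05. Single values had two-sided exact permutation tests.

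Genes named were the 15 largest rises and falls past the threshold without overlap, up to 4 members per list with the most positive-only and negative-only regions, and 22 fixed genes; the 8 top regions of either class were named by median rank. List members called without negative replicate 2 were added after the data were seen. A few loci that these rules select are not reported here. Members and the 24 lists (431 of 434 genes placed) were chosen with earlier results of these data known. Replicate numbers mark different mice, each 1 library, and the labels give no batch.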

Additional observations from a re-analysis of the deposited data

Results flagged for a closer look

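In groups of 4 libraries, 1 library lay far from the other 3 by Dixon's test at several values, which chance does in about 1 in 20 groups. Positive replicate 1 had the fewest peaks of its group (27406) and the highest share at gene starts (38.3%). It also lay apart at Gabpa (3.78 kb), Havcr2 (1.88 kb), Sqstm1 (2.20 kb), Atf4 (2.57 kb) and Kdm6b (9.10 kb). Positive replicate 2 was the library with peaks at Cnih3 (0.644 kb), and positive replicate 4 was low at Tox2 (3.38 kb). Negative replicate 2 was high at Rcan1 (6.36 kb), Flt3 (4.51 kb) and Lbp (1.29 kb) and low at Cd3e (1.63 kb), Cxcr5 (1.71 kb), Jak1 (7.94 kb), Arid1a (6.84 kb), Ccnd3 (7.19 kb), Ddit3 (1.92 kb) and Kdm6a (3.14 kb). Cause was not tested for any of these.

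At the loci named next, all 4 tumour positive libraries lay on one side of all 4 negative ones while both in vitro positive libraries lay on the other side of both in vitro negative ones. The difference between the experiments was not tested. Tumour differences, positive minus negative in mean scaled coverage, were 3.49 kb at Tox, 6.24 at Lef1, 1.95 at Ikzf2, 12.0 at Foxp1, 1.41 at Cd5 and 4.42 at Jak1, where the in vitro differences were -7.95, -4.47, -1.95, -1.47, -1.12 and -3.15 kb. Among chromatin genes they were 1.71 kb at Ezh1, 1.36 at Tet1 and 2.37 at Kdm6a, against in vitro differences of -0.744, -1.93 and -0.431 kb. The other loci higher in tumour positive libraries were Morc1 (1.69 kb), Brdt (2.15), Gabrr2 (1.10), Ntn5 (1.15), Rnf32 (1.26), Trpm1 (3.45), Actr10 (1.76), Uso1 (2.31), Ppp4r1 (2.06), Xpa (1.16), Gabpa (0.954) and Lbp (1.47), with in vitro differences of -2.10 kb at Morc1 to -0.348 kb at Gabpa. Rcan1 (-2.60 kb) and Ankrd33b (-3.28 kb) were lower in tumour positive libraries and higher in the in vitro positive ones, by 1.43 and 1.06 kb.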

How the results depend on the processing

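The numbers of called loci and of group-only regions moved with most choices. Loci with more coverage in positive cells numbered 24 and ran from 0 to 212 when 1 library was left out, and those with less coverage numbered 18 and ran from 2 to 129. They numbered 1 and 2 with no scaling, 50 and 36 with equal numbers of peaks, 8 and 5 at −log10 q of 5, 10 and 11 with a pseudocount of 25 bp, 54 and 58 with 500 bp, 56 and 105 with no filter, and 12 and 9 in a 10 kb window. Of the 24 and 18, 5 and 4 were also called with equal numbers, 2 and 2 in the 10 kb window, 6 and 4 at −log10 q of 5, 16 and 13 with the replicate block, and all with 500 bp or no filter. Without negative replicate 2, settings chosen after the data were seen gave 216 and 145 with equal numbers, 3 and 5 with no scaling, and 61 and 49 with the replicate block. Replicate numbers mark different mice, and same-numbered libraries did not deviate together (correlations of -0.12, 0.13, -0.05 and -0.15); the block gave 21 higher and 24 lower loci, and 1667 higher and 1901 lower RNA calls against 1362 and 1638. Positive-only regions (500) ran from 535 to 1208 and negative-only regions (750) from 763 to 1318 with 1 library left out, where positive replicate 1 (1208 and 763) turned the order round. They numbered 770 and 308 with equal numbers, 1336 and 1993 at 3 of 4 against 0 of 4, and, without negative replicate 2, 848 positive-only with equal numbers and 1139 and 1319 negative-only at −log10 q of 5 and in summit windows. RNA calls were 1688 with DESeq2 and 1722 to 3451 with 1 library left out.

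In vitro presence of positive-only regions was 36.0% and 27.3% in in vitro positive replicates at −log10 q of 5, 44.7% in positive replicate 2 and 62.2% and 62.6% in negative replicates with equal numbers, 32.9%, 27.7%, 45.3% and 38.8% in summit windows, and 51.0%, 40.5%, 61.0% and 52.1% without negative replicate 2. Negative-only regions had 85.1% and 78.0% in in vitro positive replicates at −log10 q of 5, 91.9% and 91.9% in positive and 92.5% and 91.2% in negative replicates with equal numbers, 84.4% in positive replicate 1 in summit windows, and 76.9%, 68.9%, 78.1% and 70.9% without negative replicate 2.

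Library measures changed sign under several settings. With replicates 3 and 4 alone, positive minus negative was 2277 peaks, 2.83 Mb, -6.50 bp in median length and -1.88 points at gene starts. Equal numbers gave -38.0 bp and -0.363 points, and without negative replicate 2 as well 0.340 Mb and -0.516 points, the last at the smallest exact p (0.0286). Ranges with 1 library left out were -9477 to -2322 peaks, -8.25 to -0.556 Mb, -25.7 to 81.3 bp, 1.29 to 4.89 points and -0.530 to 0.0601 in background pileup. In the 10 kb window Uso1 (-0.18), Piwil2 (0.17), Dusp16 (0.062) and Pbx4 (0.13) changed sign. Over 100 named loci, 1465 values under alternatives kept their call status, 316 lost and 81 gained a call. The first count includes loci not called with 8 libraries that changed sign, such as Pdcd1 with equal numbers (1.96). The cause was not tested. Peak lists give presence above each library's threshold and no read counts, so a missing peak may be shallow signal.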
